A study of Rattus norvegicus with 6 samples.

Results

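ATP-sensitive potassium (KATP) channels were described through the 4 genes that encode their subunits, Kcnj8, Kcnj11, Abcc8 and Abcc9. The members were taken by symbol from a table of 14607 genes measured in both mural cell types of the rat brain, and each of the 4 had a single row. By the study's account these are the genes with reads in every sample. A gene that lacks reads in even a single sample thus has no row, so the lack of a row does not mean that a gene was undetected. Ranks and shares below are among the 14607 genes only. Kcnj8 (ENSRNOG00000013463) encodes the pore subunit Kir6.1, and Kcnj11 (ENSRNOG00000021128) encodes the pore subunit Kir6.2. Abcc8 (ENSRNOG00000021130) encodes the sulphonylurea receptor SUR1, and Abcc9 (ENSRNOG00000036960) encodes the sulphonylurea receptor SUR2.

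A KATP channel is built from inward rectifier pore subunits, each joined by a sulphonylurea receptor, which is an ABC transporter family protein that regulates the pore instead of moving a substrate. Intracellular ATP closes the pore, to a degree that depends on the subunits, and ADP bound with magnesium at the SUR opens it. The channel thereby couples the energy state of the cell to its membrane potential. In arterial muscle, open KATP channels hyperpolarise the membrane and relax the vessel. Vasodilators that raise cAMP open them through protein kinase A (PKA), and vasoconstrictors acting through Gq and protein kinase C (PKC) close them. Kir6.1 with SUR2 is the combination classically described in vascular muscle, and Kir6.2 with SUR1 the combination of the pancreatic beta cell and of many neurons. Kcnj8 and Abcc9 are also widely used as transcript markers of brain pericytes.

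RNA-Seq was carried out on mid-capillary pericytes (mcPCs) and on vascular smooth muscle cells (VSMCs), both freshly sorted from the cortex of male Sprague-Dawley rats aged 4 to 5 weeks, with 3 samples per cell type. No animal carried a transgene or received a treatment, and each isolation pooled the cortices of several rats. VSMCs came from arterioles retained on a filter after mild digestion, from which CD31+ and CD11b+ cells were removed before positive sorting with a lectin of Griffonia simplicifolia. mcPCs were the cells of the filtrate left after removal of CD31+, CD11b+, GLAST+ and O4+ cells, so no surface marker selected them positively. The arteriolar fraction also takes in the first segments downstream of arterioles, and the capillary fraction cannot separate pericyte subtypes.

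All values below are the authors' means of a cell type, since the table holds no value per sample. There is therefore no replicate check and no SD, and no difference below was tested. The 95% intervals rest on the reads summed over the 3 libraries of a cell type, cover counting error only, and leave out the spread between isolations. The intervals printed are exact, except those of the paralogue ratio compared between cell types, which use a normal approximation. Levels are in TPM, the number of transcripts of a gene in every 1000000 transcripts, which correct for transcript length and allow genes to be compared within a cell type. Ratios between cell types are log2 of the authors' mean normalized counts of mcPCs over VSMCs.

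The pore subunit genes differed between the cell types in opposite directions. The mean level of Kcnj8 was 17.2 TPM in VSMCs (95% counting interval 16.7 to 17.7) against 346 TPM in mcPCs (343.9 to 347.1). These levels rest on 4846 reads in VSMCs and 179221 reads in mcPCs. In mean normalized counts, Kcnj8 was 71.9-fold higher in mcPCs, a log2 ratio of 6.17 (6.13 to 6.21). Kir6.1, its product, was thus represented by transcripts in both cell types, with the far higher level in mcPCs.

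Kcnj11 showed the opposite distribution. Its mean level was 34.4 TPM in VSMCs (33.8 to 35.0) against 0.0975 TPM in mcPCs (0.0744 to 0.126). The VSMC level rests on 11918 reads, whereas the 3 mcPC libraries together held 60 reads of this gene (45.8 to 77.2). In mean normalized counts, Kcnj11 was 96.7-fold higher in VSMCs, a log2 ratio of -6.60 (-6.99 to -6.23). Kir6.2 transcripts were therefore near the bottom of the mcPC profile, although they were detected.

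The genes encoding the receptor subunits were divided in the same manner. The mean level of Abcc8 was 23.8 TPM in VSMCs (23.4 to 24.2) against 0.374 TPM in mcPCs (0.337 to 0.413), from 13017 and 378 reads. Its mean normalized counts were 18.7-fold higher in VSMCs, a log2 ratio of -4.22 (-4.38 to -4.08). SUR1 was thus the receptor subunit with the lower transcript level in mcPCs.

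Abcc9 was measured at 12.4 TPM in VSMCs (12.2 to 12.7) and at 320.4 TPM in mcPCs (319.5 to 321.4). Its estimated reads were 8771 in VSMCs and 435477 in mcPCs, the largest number for any of the 4 genes. In mean normalized counts Abcc9 was 91.6-fold higher in mcPCs, a log2 ratio of 6.52 (6.49 to 6.55). SUR2 has splice forms that differ in the tail of the protein, and the table sums them into one value per gene. The mean effective length of Abcc9, the length over which a fragment can be placed averaged over its transcripts, was 5775 bases in VSMCs and 6076 in mcPCs. For Abcc8 the effective lengths were 4538 and 4475 bases, and for Kcnj8 and Kcnj11 they were the same in both cell types. Whether the isoform mix of Abcc9 differed was not tested.

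**Figure D1:**
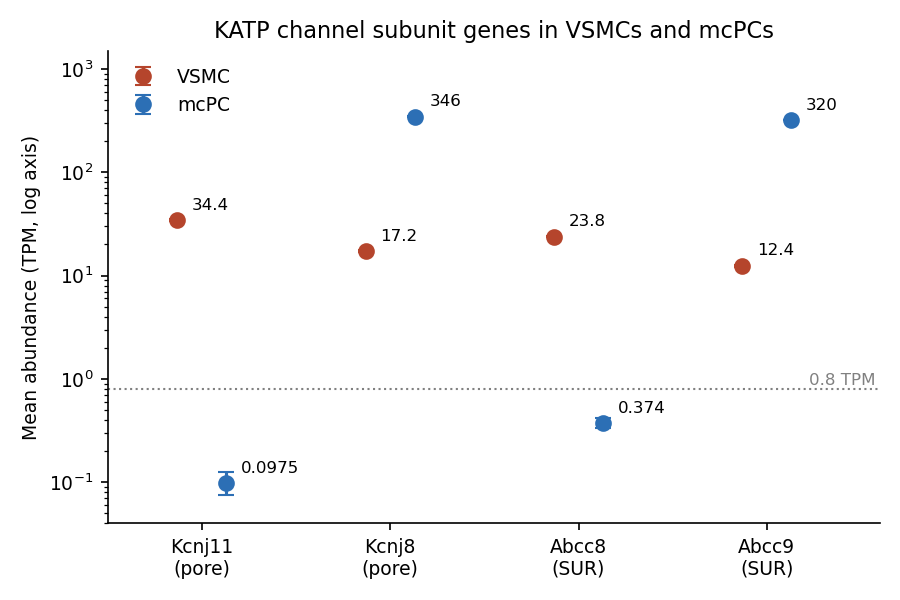
Mean abundance of the 4 KATP subunit genes in VSMCs (red) and mcPCs (blue), in TPM on a log axis. Points are the authors' means of 3 samples and bars are 95% counting intervals, mostly smaller than the points; the dotted line marks 0.8 TPM. Kcnj11 and Abcc8 lie above the line in VSMCs and below it in mcPCs, and Kcnj8 and Abcc9 lie above it in both. Levels are not rescaled for erythrocyte transcripts.

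All 4 genes exceeded 0.8 TPM in VSMCs, the limit the study set for low expression in that cell type. In mcPCs, for which the study set no such limit, 2 of them exceeded the same level. Erythrocyte transcripts lower the TPM of all other genes in mcPCs, as described below. In TPM rescaled without erythrocyte genes, Abcc8 reached 1.13 TPM in mcPCs, above 0.8 TPM, whereas Kcnj11 stayed below it at 0.296 TPM. The order of levels differed between the cell types, although Kcnj8 was above Abcc9 in both. In VSMCs Kcnj11 stood highest, followed by Abcc8, Kcnj8 and Abcc9. In mcPCs Kcnj8 stood highest, followed by Abcc9, Abcc8 and Kcnj11. In neither order did the counting intervals of neighbouring genes overlap. The spread between isolations, which would decide whether neighbours such as Kcnj8 and Abcc9 in mcPCs differ, is not known.

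Because erythrocyte transcripts took a large share of the mcPC libraries, the size of each ratio depends on the scale. Rows of erythrocyte genes, 23 in number, held 66.9% of the mcPC TPM and 0.880% of the VSMC TPM. The log2 ratio of TPM (with 0.1 TPM added to each level) of the median gene was accordingly -1.72, against 0.01 for mean normalized counts. On the TPM scale the log2 ratio was 4.32 for Kcnj8, 4.68 for Abcc9, -7.45 for Kcnj11 and -5.66 for Abcc8. Relative to the median gene these become 6.04, 6.39, -5.73 and -3.94. When TPM were rescaled without the erythrocyte rows, which was decided on seeing the data, Kcnj8 reached 1047 TPM and Abcc9 970.8 TPM in mcPCs. The direction held for each of the 4 genes on every scale computed.

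A comparison of the paralogues within each cell type does not depend on scaling between the cell types. In VSMCs, Kcnj8 made up 33.3% of the summed level of the pore genes (32.4 to 33.9), and Kcnj11 the remaining 66.7%. In mcPCs the share of Kcnj8 was 99.97% (99.96 to 99.98). Abcc9 made up 34.3% of the summed level of the SUR genes in VSMCs (34.0 to 35.2) and 99.9% in mcPCs. VSMCs therefore carried transcripts of all 4 subunits, between 12.4 and 34.4 TPM, whereas nearly the whole of the subunit mRNA of mcPCs came from Kcnj8 and Abcc9.

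Within VSMCs, Kcnj11 was 2.0-fold as abundant as Kcnj8 and Abcc8 was 1.92-fold as abundant as Abcc9. Within mcPCs, Kcnj8 was 3543-fold as abundant as Kcnj11 and Abcc9 was 857-fold as abundant as Abcc8. Combining both cell types, the ratio of Kcnj8 to Kcnj11 was 12.76 higher on the log2 scale in mcPCs than in VSMCs (12.40 to 13.13). The corresponding difference for Abcc9 over Abcc8 was 10.74 (10.59 to 10.89). In bulk samples such as these, fewer cells of a type and less RNA per cell cannot be told apart, so it is not known whether single VSMCs carried all 4 transcripts.

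**Figure D2:**
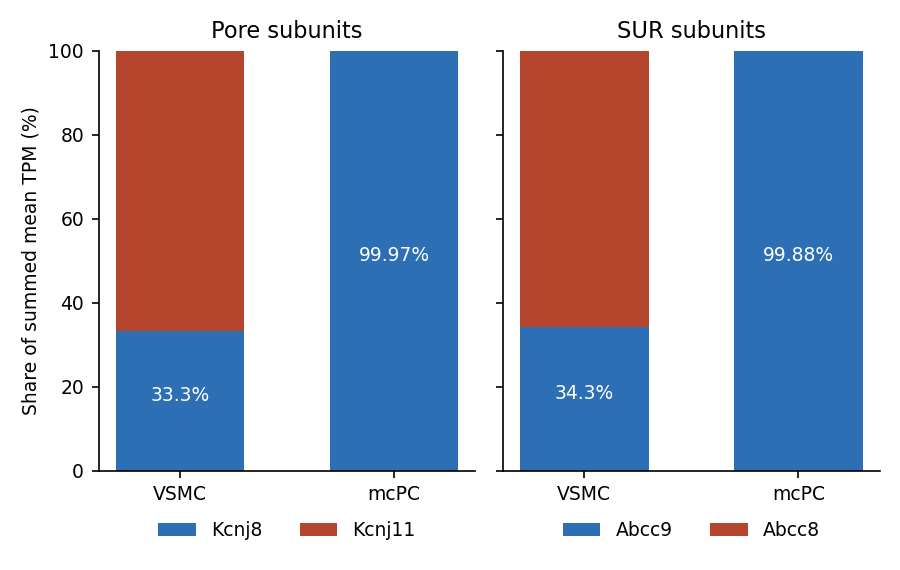
Share of each paralogue in the summed mean TPM of the pore genes (left) and of the SUR genes (right), in percent, for VSMCs and mcPCs; blue is Kcnj8 or Abcc9 and red is Kcnj11 or Abcc8. Blue fills 33.3% and 34.3% of the VSMC bars and nearly all of the mcPC bars.

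The totals of the pore and receptor genes stayed close to each other. Pore genes summed to 51.6 TPM and SUR genes to 36.3 TPM in VSMCs, a ratio of 1.42. In mcPCs they summed to 345.6 and 320.8 TPM, a ratio of 1.08. The ratio within the classical pairs was also similar in VSMCs, at 1.39 for Kcnj8 to Abcc9 and 1.44 for Kcnj11 to Abcc8. In mcPCs the first of these ratios was 1.08, and the second was 0.261, at levels where Kcnj11 had 60 reads in all. Added together, the 4 genes came to 87.9 TPM in VSMCs against 666.4 TPM in mcPCs.

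Among all genes of the table, the members lay at the edges of the comparison. Of the 14607 genes, 640, or 4.38%, had mean normalized counts at least 16-fold higher in mcPCs, and 220, or 1.51%, at least 16-fold higher in VSMCs. Kcnj8 and Abcc9 belonged to the former and Kcnj11 and Abcc8 to the latter, so 2 of the 4 genes lay in each. Abcc9 had the ratio ranked 150 and Kcnj8 the ratio ranked 189 from the top in favour of mcPCs. Kcnj11 ranked 44 and Abcc8 ranked 191 in favour of VSMCs. By level, Kcnj8 moved from rank 6297 in VSMCs to rank 97 in mcPCs, and Abcc9 from rank 7365 to rank 104. These pericyte levels were above those of 99.3% of all genes, for either gene. Kcnj11 held rank 3958 in VSMCs, above 72.9% of genes, and rank 13913 in mcPCs. Abcc8 held rank 5210 in VSMCs, above 64.3% of genes, and rank 12634 in mcPCs.

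The genes whose levels most resembled each member were found by the distance between log2 levels (TPM + 0.1) over the 2 cell types. Kcnj8 and Abcc9 were each other's nearest gene, at a distance of 0.479. Few genes shared their position, with 3 genes within a distance of 1 of Kcnj8 and 4 within 1 of Abcc9. The next nearest to Kcnj8 were Htra3 (distance 0.864), a secreted serine protease gene, and RGD1566368 (0.869), described as similar to an Slc6a20 transporter. After Kcnj8, the nearest to Abcc9 were RGD1566368 (0.581) and LOC685513 (0.827), described as similar to a G protein gamma-12 subunit.

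The VSMC-enriched pair lay in a more crowded part of the plane. Nearest to Kcnj11 were Alppl2 (0.116), an alkaline phosphatase gene, Ankrd29 (0.234), and Zbtb7c (0.253), a zinc finger gene, with 31 genes within 1. Nearest to Abcc8 were Nhs (0.119), a regulator of actin remodelling, Osmr (0.232), the oncostatin M receptor, and Arhgap44 (0.267), with 54 genes within 1. Kcnj11 and Abcc8 were 1.37 apart, and Abcc8 was in place 55 among the genes nearest to Kcnj11. These distances rest on means of 2 cell types only and are a description of position.

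**Figure D3:**
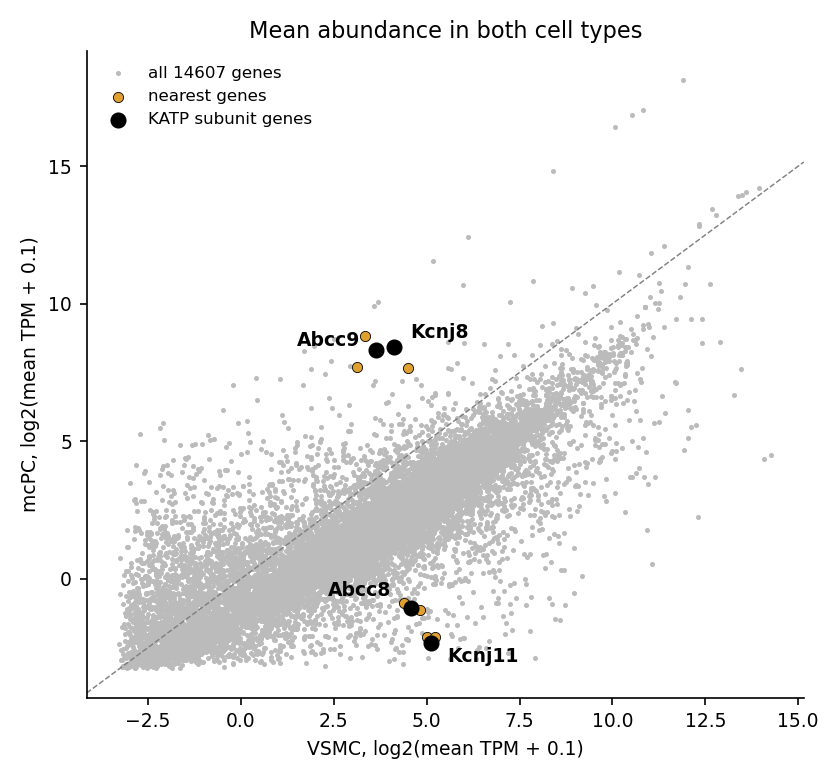
Mean abundance of all 14607 genes in VSMCs (x axis) and mcPCs (y axis), both as log2(TPM + 0.1), with the dashed line marking equal TPM. Black points are the KATP subunit genes and orange points their nearest genes. Kcnj8 and Abcc9 lie side by side above the line with few genes near them, and Kcnj11 and Abcc8 lie at the lower edge of the cloud.

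In the rat genome, as in other mammals, Kcnj8 lies next to Abcc9 and Kcnj11 lies next to Abcc8, so each pore gene has a receptor gene beside it. The Kcnj8 and Abcc9 pair is on chromosome 4 and the Kcnj11 and Abcc8 pair on chromosome 1. Both members of a pair were thus higher in the same cell type, on either chromosome. The promoters of Kcnj8 and Abcc9 are shown because promoter sequences were available for these 2 members only. They are the 250 bases before each RefSeq start in the assembly GRCr8, at chr4:177246549-177246798 for Kcnj8 and chr4:177386349-177386598 for Abcc9, both on the minus strand and written 5′ to 3′. Capitals mark the matches found by a search of both strands.

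Kcnj8: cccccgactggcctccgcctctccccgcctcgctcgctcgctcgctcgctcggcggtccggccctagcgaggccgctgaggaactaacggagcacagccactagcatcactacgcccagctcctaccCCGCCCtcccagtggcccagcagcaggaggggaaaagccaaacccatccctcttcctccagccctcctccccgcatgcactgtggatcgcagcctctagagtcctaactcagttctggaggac
Abcc9: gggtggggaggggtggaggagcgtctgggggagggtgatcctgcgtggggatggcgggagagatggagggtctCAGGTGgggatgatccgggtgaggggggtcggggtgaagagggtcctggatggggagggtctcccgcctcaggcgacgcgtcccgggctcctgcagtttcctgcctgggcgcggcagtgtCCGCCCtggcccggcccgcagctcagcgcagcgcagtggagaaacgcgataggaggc

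Both promoters are rich in G and C, with a GC content of 66.8% for Kcnj8 and 71.2% for Abcc9. The median over 33469 rat promoters was 51.2%, and 87.4% of them had a lower GC content than Kcnj8 and 93.1% a lower one than Abcc9. The GC box letters GGGCGG were found once in each promoter, on the reverse strand as CCGCCC. They lie 123 to 118 bases before the start of Kcnj8 and 57 to 52 bases before that of Abcc9, and 30.5% of all promoters hold such a match. The E-box letters CANNTG were found once in Abcc9, as CAGGTG at 177 to 172 bases before the start, and in 65.5% of all promoters. No match was found in either window for TATAAA (12.9% of all promoters), TGGGAA (22.1%), CACGTG (5.59%), which is itself a form of CANNTG, or the CArG box (1.5%). The absence of these letters covers these windows only.

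The genes around the pair on chromosome 4 did not share its ratio. Of the 5 protein-coding genes on each side of Kcnj8 and Abcc9, 6 of 10 had a row in the table, with log2 ratios from -1.27 for Recql, a DNA helicase gene, to 1.46 for Cmas, a sialic acid synthesis gene. Ldhb, the lactate dehydrogenase gene directly beside Kcnj8, had 1.37, and C2cd5 had 1.15. Golt1b, at 0.27, and Etnk1, at 0.35, were close to the median gene. None of these 6 neighbours was 16-fold higher in either cell type.

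Around the pair on chromosome 1, 8 of 10 neighbours had a row. Ush1c, which encodes the scaffold protein harmonin and lies directly beside Abcc8, had 20.5 TPM in VSMCs against 0.0582 TPM in mcPCs, from 4853 and 25 reads. Its log2 ratio was -6.68, ranked 42 of all genes in favour of VSMCs, beside -6.60 for Kcnj11 at rank 44. The 3 adjacent genes Kcnj11, Abcc8 and Ush1c were therefore at least 16-fold higher in VSMCs. On the other side, Nomo1 had a log2 ratio of 0.24, Odad1 1.23 and Emp3 0.70. Abcc6, a transporter gene of the same ABCC family, had 3.05 at 1.92 TPM in VSMCs against 4.59 TPM in mcPCs. Beyond Ush1c, Sergef had 0.08 and Otog 0.43, and Kcnc1, a voltage-gated potassium channel gene, had 4.05 on 5.00 and 43.0 reads. The libraries kept strand, and whether reads were assigned across the borders of these adjacent genes was not tested.

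**Figure D4:**
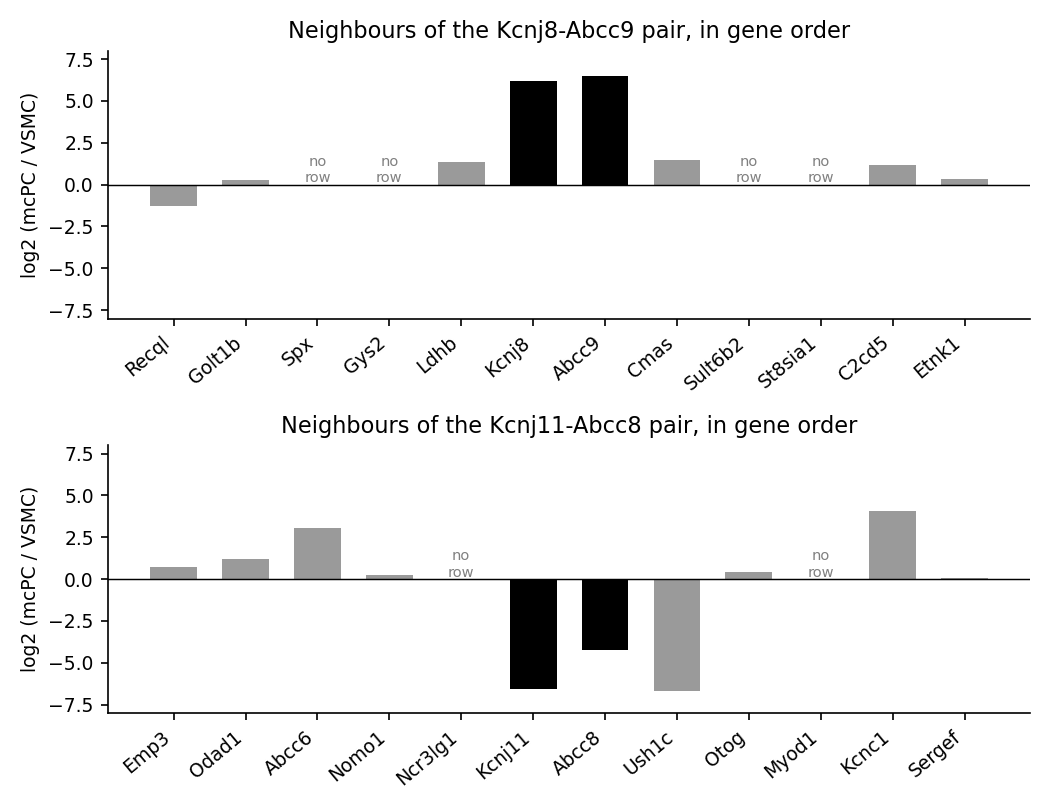
Log2 ratio of mcPCs over VSMCs (mean normalized counts) for the KATP gene pairs (black) and the 5 protein-coding genes on each side (grey), in genomic order and not to scale. Above, none of the neighbours of Kcnj8 and Abcc9 comes near their ratios; below, Ush1c, beside Abcc8, reaches -6.68.

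Seen within their protein families, the subunit genes stood differently in the cell types. Among 10 inward rectifier genes with a row, summing to 113.2 TPM in VSMCs against 350.1 TPM in mcPCs, Kcnj8 held 15.2% of the VSMC level, at rank 3, and 98.7% of the mcPC level. Kcnj11 held 30.4% of the VSMC level and 0.0279% of the mcPC level. Kcnj12, which encodes the strong inward rectifier Kir2.2, was the highest of the family in VSMCs at 54.4 TPM and had 1.93 TPM in mcPCs, where it came next after Kcnj8. Among 10 genes of the ABCC family, Abcc9 held 11.8% of the VSMC level and 93.2% of the mcPC level, and Abcc8 22.7% and 0.109%. Abcc5, an exporter of cyclic nucleotides, was the highest ABCC gene in VSMCs at 43.0 TPM and had 12.3 TPM in mcPCs.

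The other members of these families showed smaller ratios than the KATP genes. Over all 14607 genes, 3210, or 22.0%, were at least 2-fold higher in mcPCs and 2034, or 13.9%, at least 2-fold higher in VSMCs, with a median log2 ratio of 0.01. Of the 8 other inward rectifier genes with a row, 5 were at least 2-fold higher in mcPCs and 2 in VSMCs, with a median of 1.26. The 5 higher in mcPCs had low levels, at most 0.44 TPM in mcPCs. Kcnj12 had the lowest ratio at -3.00, Kcnj2, which encodes Kir2.1, had -2.30, and Kcnj9 had the highest at 2.84, on 0.172 and 0.343 TPM. Of the 8 other ABCC genes with a row, 4 were at least 2-fold higher in mcPCs and 0 in VSMCs, with a median of 0.63. Cftr, the chloride channel gene of the family, had the lowest ratio at -0.70 on 83.4 and 25.0 reads, and its ratio was 0.92 when taken from TPM relative to the median gene. Abcc1 was at -0.56 and Abcc5 at 0.04.

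Other potassium channel genes known from arterial smooth muscle were split evenly in number by the same limit, but not in level. Of 16 with a row, 6 were at least 2-fold higher in mcPCs and 6 in VSMCs, with a median log2 ratio of 0.47. The 6 higher in mcPCs had at most 1.53 TPM there, whereas the 6 higher in VSMCs had at least 13.3 TPM in VSMCs. Summed over the list, the level was 689.5 TPM in VSMCs against 21.2 TPM in mcPCs, not rescaled for erythrocyte transcripts. Kcna5, which encodes the voltage-gated channel Kv1.5, had 145.6 TPM in VSMCs against 0.0527 TPM in mcPCs, a log2 ratio of -9.79 on 20 mcPC reads. Kcnmb1, the regulatory beta1 subunit of the large-conductance calcium-activated channel, had 414 and 1.1 TPM, a ratio of -6.73. Both ratios were lower than that of Kcnj11. The highest levels in mcPCs were those of the two-pore-domain channel genes Kcnk3, at 8.24 TPM and a ratio of 0.11, and Kcnk6, at 5.54 TPM and 0.83. Kcnj8, at 346 TPM, was thus far above any other potassium channel gene listed here in mcPCs.

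Genes of the cAMP and PKA arm, in which PKA opens vascular KATP channels, were mostly higher in VSMCs. Of 17 genes, all with a row, 9 were at least 2-fold higher in VSMCs and 1 in mcPCs, with a median of -1.48. The list also takes in Rapgef3 and Rapgef4, which respond to cAMP apart from PKA, with ratios of -2.19 and 0.67. Rapgef3 is thus among the 9 genes higher in VSMCs without being part of the PKA branch. Adcy3, an adenylyl cyclase gene, had 279 TPM in VSMCs against 1.71 TPM in mcPCs, a ratio of -5.57. Prkar1a, a regulatory subunit of PKA, had 1005 and 90.8 TPM, a ratio of -1.65. Gnas, which encodes the stimulatory G protein alpha subunit, had 860 and 257 TPM, a ratio of 0.10. The exception in favour of mcPCs was another cyclase gene, Adcy7, with 0.15 and 3.08 TPM and a ratio of 6.11. Which cells of the mcPC samples gave its reads was not tested.

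Receptors of vasodilators that act through cAMP stand at the head of that arm. Of 12 receptor genes with a row, 7 were at least 2-fold higher in mcPCs and 3 in VSMCs, with a median of 1.44. Adora2a, an adenosine receptor, was abundant in both cell types, at 88.3 TPM in VSMCs against 75 TPM in mcPCs, with a ratio of 1.60. Calcrl, a part of the CGRP receptor, had 27.3 and 14.1 TPM, a ratio of 0.86. Its partner in that receptor, Ramp1, added after its values were seen, had 22.5 and 3.40 TPM, a ratio of -0.93. Ptgir, the prostacyclin receptor, had 88.6 and 5.36 TPM, a ratio of -2.21, and Vipr2, a receptor of vasoactive intestinal peptide, had a ratio of -3.25. Ramp2, a partner of Calcrl, had the highest ratio of the list at 4.25, on 1.58 and 8.89 TPM.

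The arm that closes the channels showed a smaller difference. Of 14 genes of the Gq, PKC and calcineurin list with a row, 3 were at least 2-fold higher in VSMCs and 3 in mcPCs, with a median of -0.66. Plcb4, a phospholipase C gene, had 75.1 and 4.99 TPM, a ratio of -2.11, and Plcb1 had the lowest ratio at -2.66. Prkcd, a PKC gene, had the highest level of the list in both cell types, 114 and 24.8 TPM, with a ratio of -0.39. Prkch, another PKC gene, had the highest ratio at 5.88, on 0.246 and 4.29 TPM.

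Enzymes that set or buffer ATP and ADP near the channel were on balance higher in VSMCs. Of 9 with a row, 5 were at least 2-fold higher in VSMCs and 1 in mcPCs, with a median of -1.33. Ak1, adenylate kinase, had a ratio of -4.02, and Ckb, brain creatine kinase, had 889 and 43.8 TPM and a ratio of -2.56. Gapdh, the glycolytic enzyme, had 1177 and 131.5 TPM, a ratio of -1.37. Ldhb, which is also the neighbour of Kcnj8, was the exception at 1.37.

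Of 11 trafficking and anchoring partners with a row, 3 were at least 2-fold higher in VSMCs and 0 in mcPCs, with a median of -0.33. The caveolin gene Cav1 had 497 and 2.05 TPM, a ratio of -6.14, and Cavin1, which shapes caveolae, had 888 and 29.5 TPM, a ratio of -3.09. The 14-3-3 genes Ywhaz and Ywhae, whose products favour surface delivery of KATP channels, had ratios of -0.84 and 0.17. Voltage-gated calcium channels lie downstream of the membrane potential that KATP channels set. Of their 9 genes, 7 were at least 2-fold higher in VSMCs and 0 in mcPCs, with a median of -1.55. Cacna1c, the L-type pore gene, had 63.3 and 8.65 TPM, a ratio of -1.05. The T-type genes Cacna1h and Cacna1g had ratios of -2.11 and -3.15.

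**Figure D5:**
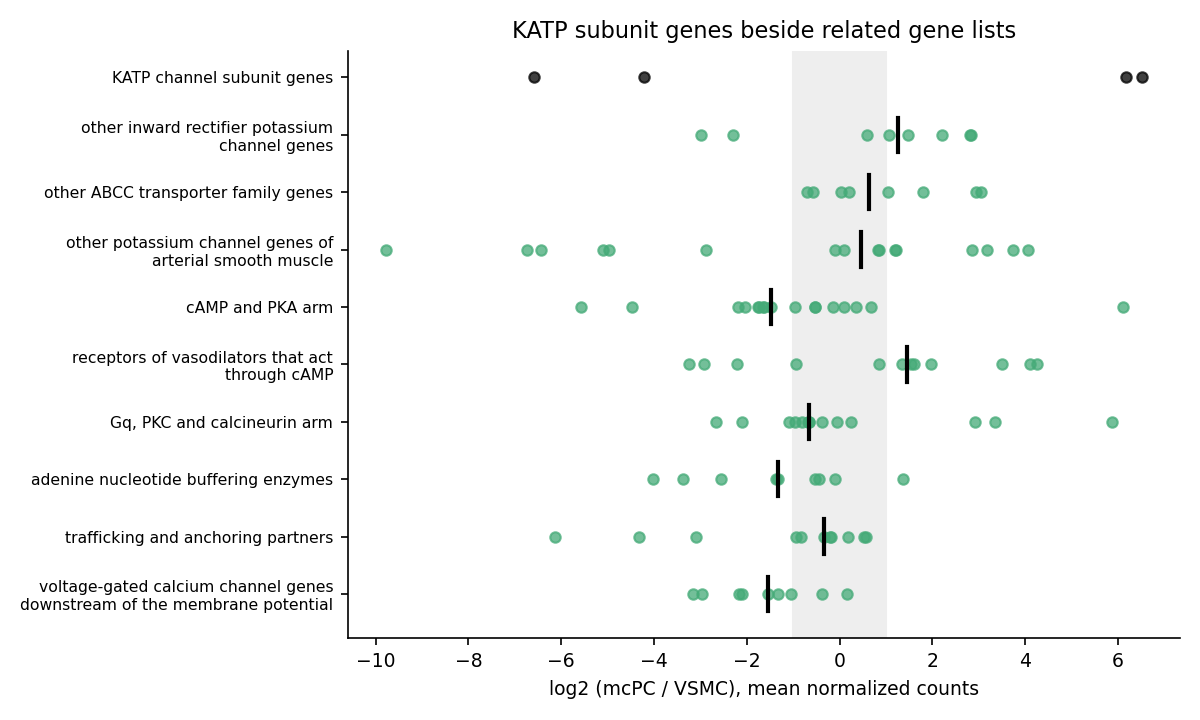
Log2 ratio of mcPCs over VSMCs (mean normalized counts) for each KATP subunit gene (black) and each gene of the related lists (green), with a bar at the median of each list and grey shading where the difference is under 2-fold. The KATP genes sit at both ends with none in between, while most listed genes lie between -4.02 and 4.25.

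Marker genes of the cell types were also described, and they bear on the low levels of the subunits. They are no independent check of the labels, because the study assigned these from mural and contractile genes, Acta2 among them. All 9 smooth muscle markers were higher in VSMCs, with log2 ratios from -8.35 to -2.48, and their summed level was 45425 TPM in VSMCs against 82.8 TPM in mcPCs. The ratios of Kcnj11 and Abcc8 lie within that range. All 6 capillary pericyte markers were higher in mcPCs, with ratios from 1.26 to 7.75 and summed levels of 1001 and 2556 TPM, and those of Kcnj8 and Abcc9 lie within that range. The 5 pan-mural markers, shared by both cell types, had ratios from -1.31 to 1.17. The part of VSMC transcripts in the mcPC samples, and the reverse, in the lower levels of the members was not tested.

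Markers of other cells were present at varying levels in both cell types. Of 14 endothelial markers with a row, 9 were at least 2-fold higher in mcPCs and 0 in VSMCs. Their summed level was 653.5 TPM in VSMCs against 248.3 TPM in mcPCs, of which Esam, a junction gene, gave 487.3 and 183.9 TPM. No sum in this paragraph is rescaled for erythrocyte transcripts, which held 66.9% of the mcPC TPM and lower all other mcPC levels. A lower sum in mcPCs therefore does not show that VSMCs held more of these markers. Cldn5, a defining tight junction gene of brain endothelium, had 0.643 and 15.4 TPM, and Pecam1 had no row. Rows were present for 5 of 9 neuronal, 4 of 7 astrocyte, 5 of 9 microglial and 5 of 7 oligodendrocyte markers, whose summed levels in mcPCs were 22.3, 15.7, 9.45 and 6.0 TPM. In VSMCs the sums were 3.23, 0.582, 0.683 and 6.66 TPM. The highest astrocyte marker had 12.7 TPM, the highest microglial marker 3.94 TPM and the highest neuronal marker 15.7 TPM in mcPCs. In the fibroblast list, the summed level was 141 TPM in VSMCs against 186 TPM in mcPCs, with a highest single gene of 131.9 TPM in mcPCs. No marker list covered blood leukocytes. Ptprc, a leukocyte gene chosen after its values were seen, had 0.0659 TPM in VSMCs against 15.1 TPM in mcPCs, a log2 ratio of 9.66. The part of all these cells, leukocytes included, in the ratios of the members and of related genes such as Adcy7 and Prkch was not tested.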

How the data were processed

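Polyadenylated RNA of 3 VSMC and 3 mcPC samples, with RNA integrity numbers of 6.40 to 8.50, was sequenced from stranded libraries in 4 runs each. The authors estimated transcript abundances and counts with Salmon 0.8.0 against Ensembl transcripts of the rat genome Rnor_6.0, added them up by gene, and normalized and compared them with DESeq2. TPM values are the authors' means of each cell type. The estimated counts deposited are means per run, and 12 times these values was taken as the reads of a cell type, since these products were whole within 0.01 for 69.8% of genes in VSMCs and 71.5% in mcPCs. The authors' normalized counts, treated as a signal, are means as well, as are the lengths. The deposited fold changes, standard errors and p-values are the authors' own comparison and were not used. The depth of a VSMC sample averaged 61.98 M assigned reads (M, 1000000) and that of a mcPC sample 47.99 M.

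The edgeR test planned for values per sample was not run, because the table gives means. Log2 ratios, shares and ranks were computed from the means. Intervals on rounded reads were exact, Clopper-Pearson for log2 ratios and shares and Poisson for levels and reads. Those of the paralogue ratio compared between cell types used a normal approximation on the log scale. Alternatives were TPM with pseudocounts of 0.1 and 1, TPM relative to the median gene, counts scaled to the same total or without erythrocyte genes, and a minimum of 0.8 TPM. Members and gene lists were chosen with earlier results of these data known. The genes named are the members, the 3 nearest genes of each, the genomic neighbours, markers, and from each list the genes highest in level or ratio. Cavin1 and Odad1 were matched through their older symbols, and for Gnas the row with more reads was taken. Promoters and gene order are from RefSeq (GRCr8), whose promoter table matched 2 of the 4 members. Steps were tested on simulated data. Computation used scipy 1.17.1, pandas 2.3.3 and numpy 2.4.6 under Python 3.11.15, with figures by matplotlib 3.10.9.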

Additional observations from a re-analysis of the deposited data

How the results depend on the processing

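The ratios of the 4 members kept their direction under each scale computed. Of 46 alternative values, which also cover shares, pore to SUR ratios and counts of genes, 23 moved beyond the counting interval or, for a count of genes, by over 1.5 times. Taken from TPM with a pseudocount of 0.1, the log2 ratio of mcPCs over VSMCs was 4.32 for Kcnj8, 4.68 for Abcc9, -7.45 for Kcnj11 and -5.66 for Abcc8. With a pseudocount of 1 it was 4.25 for Kcnj8, 4.58 for Abcc9 and -5.01 for Kcnj11. TPM relative to the median gene gave 6.04, 6.39, -5.73 for Kcnj11 and -3.94 for Abcc8. Counts scaled to the same total gave 5.58 for Kcnj8, 6.0 for Abcc9, -7.26 for Kcnj11 and -4.74 for Abcc8. Counts scaled without erythrocyte genes gave 6.32 for Kcnj8, 6.74 for Abcc9 and -4.0 for Abcc8. TPM rescaled without them, an alternative chosen after seeing the data, gave 5.91, 6.27 and -4.41. The median gene moved to -1.72, -1.43, 0, -0.55, 0.19 and -0.21 on these scales in turn. Shares of the paralogues and pore to SUR ratios moved by less than their counting intervals. Among genes with at least 0.8 TPM in VSMCs, 1601 were at least 2-fold and 133 at least 16-fold higher in mcPCs, against 3210 and 640 without that limit, which removes genes by their VSMC level. The counts in favour of VSMCs were 1929 and 219, against 2034 and 220. Among the other genes named, TPM relative to the median gene turned the sign of Cftr (-0.70 to 0.92), Abcc5 (0.04 to -0.08), Gnas (0.10 to -0.02) and Kcnk3 (0.11 to -0.01).

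No paired analysis was possible because the table gives means of each cell type, with no test and no value per isolation. For the same reason no sample was left out in turn. Precision in mcPCs is limited by depth for Kcnj11, with 60 reads in 3 libraries.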

Other observations

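Beyond the genes named by rule, a few more genes, chosen after their values were seen, were higher in VSMCs together with Kcnj11 and Abcc8. Kcnma1, the pore of the large-conductance calcium-activated channel, had 19.0 TPM in VSMCs against 0.0599 TPM in mcPCs, a log2 ratio of -6.43. The voltage-gated channel gene Kcna2 had a ratio of -5.11. In the cAMP arm, Adcy5 had 229 and 2.94 TPM, a ratio of -4.46. None of these differences was tested.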
